A study of Mus musculus with 12 samples.

Results

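The nuclear genes of respiratory complexes II to V and of cytochrome c were examined in the gastrocnemius, a calf muscle made mostly of fast fibres, of mice with and without a muscle-specific deletion of Ank2. Members were all rows whose symbol was Sdha, Sdhb, Sdhc, Sdhd, Cyc1 or Cycs, or began with Uqcr, Atp5 or Cox followed by a digit from 4 to 8. They numbered 49 of the 24528 genes listed: 4 of complex II, 9 of complex III, cytochrome c itself, 18 of complex IV, 15 of ATP synthase (complex V) and 2 that carry an Atp5 symbol without being subunits. The last 2 are Atp5s and Atp5sl, which RefSeq lists as Dmac2l and Dmac2. The ATP synthase subunits listed as Usmg5 and 2010107E04Rik fall outside these symbols. Of the 49 members, 46 reached 10 estimated reads in 6 or more libraries and were tested, while Cox6b2, Cox7b2 and Cox8c were not.

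The data are poly-A RNA-seq of bulk muscle from 6 KO mice and 6 WT mice, all males of 4 months. KO mice were Ank2f/f; HSA-Cre+ and WT mice were Ank2f/f, so both carried floxed Ank2 and the WT mice had no Cre transgene. HSA is the usual name of the human skeletal actin promoter, which is active in muscle fibres, so that vessel, nerve and connective tissue cells of the muscle should keep Ank2. WT animals were littermates housed with the KO animals. Each library came from a separate mouse, and estimated depth was 13408023 to 18706388 reads in KO libraries and 12283798 to 16907085 reads in WT libraries. Ank2, which encodes the adaptor ankyrin-B, stood at 7.54 to 8.03 in KO libraries and at 8.40 to 9.22 in WT libraries on the deposited log2 scale, without overlap. The 12 fast-fibre contractile genes averaged 17.01 to 17.42 in KO libraries and 17.31 to 17.42 in WT libraries, the highest level of any marker list used here.

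Complexes II and III pass electrons from succinate and ubiquinol to cytochrome c, and complex IV passes them from cytochrome c to oxygen. Complexes III and IV pump protons across the inner mitochondrial membrane, and ATP synthase uses the returning protons to make ATP. In skeletal muscle and heart, 3 complex IV subunits are made mainly from dedicated genes, Cox6a2, Cox7a1 and Cox8b, in place of the widely expressed Cox6a1, Cox7a2 and Cox8a. Complex II is the exception among the respiratory complexes in having all of its subunits encoded in the nucleus. The mitochondrially encoded subunits of the others were not analysed here.

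None of the 46 tested members differed between KO and WT muscle at an adjusted p of 0.05 (limma, adjusted over all 12218 tested genes), where 6.20% of the tested genes did. The smallest adjusted p of a member was 0.167. At an unadjusted p of 0.05, 3 members (6.52% of those tested) passed, against 26.0% of all tested genes. These were Cox8b and Atp5e with positive estimates and Atp5c1 with a negative one. With limma-voom on estimated reads, no member was called either, 2 passed unadjusted and the smallest adjusted p was 0.181. In 1 member, Atp5c1, the KO and WT libraries did not overlap, as they did not in 2.47% of all tested genes.

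The data bound the members' changes rather than placing them at 0. The half-width of the 95% interval of a member's change ran from 0.142 to 0.280 on the deposited log2 scale, with a median of 0.204. Over all tested members, the lowest lower bound on that scale was a fold of 0.784 (Sdhb) and the highest upper bound a fold of 1.49 (Cox8b). The scale compresses low values, so these bounds are too narrow for members with few reads. Cox4i2 had an SE of 0.10 on it and of 0.29 on log2 of scaled reads plus 1. The members together took 1.86% ± 0.21 of the estimated reads in KO libraries and 1.82% ± 0.16 in WT libraries (SD, n = 6 each), with ranges of 1.59% to 2.21% in KO and 1.63% to 2.04% in WT that overlap over most of their length. In bulk muscle, fewer cells of a type and less RNA per cell cannot be told apart.

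The median change, KO minus WT, was 0.04 over the tested members and -0.01 over all tested genes, with 29 members positive and 17 negative. By complex, the median was -0.12 in complex II (0 positive and 4 negative), 0.08 in complex III (5 and 4), 0.06 in complex IV (14 and 1) and 0.02 in complex V (10 and 5). Complexes II and IV therefore had estimates mostly on opposite sides of 0. The difference between complexes was not tested, since genes of a complex vary together across the libraries.

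**Figure D1:**
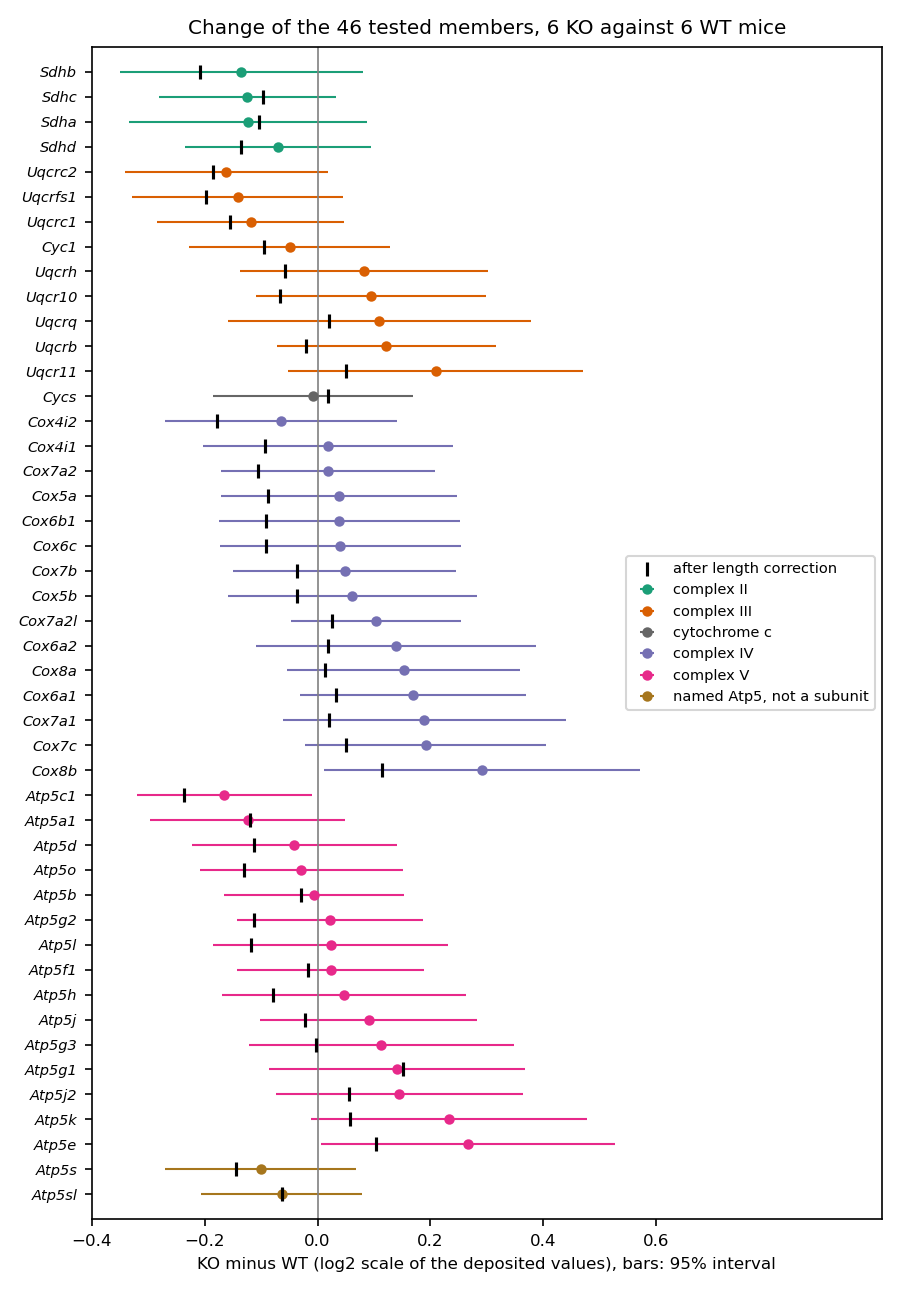
Change of each of the 46 tested members, KO minus WT in log2 units, with 95% limma intervals (n = 6 mice each), grouped by complex and sorted by change. Black ticks give the estimate after correction for transcript length. The 4 complex II points lie left of 0, 14 of the 15 complex IV points lie right of it, and no member passed the adjusted threshold.

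Complex II oxidises succinate and belongs to both the citric acid cycle and the respiratory chain. All 4 of its genes had negative estimates and none was called. Sdha, the flavoprotein that holds the succinate site, had a lowest, median and highest value of 13.23, 13.52 and 13.67 in KO libraries and of 13.41, 13.62 and 13.85 in WT libraries, a change of -0.12 (SE 0.10, limma adjusted p = 0.451). Sdhb, the iron-sulfur subunit, had 11.92, 12.26 and 12.50 in KO libraries and 12.15, 12.43 and 12.56 in WT libraries, a change of -0.13 (SE 0.10, limma adjusted p = 0.415). The groups overlapped in both genes. KO 5 held the lowest Sdhb value and KO 1 the lowest Sdha value of all 12 libraries.

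The membrane anchors that bind ubiquinone were placed alike. Sdhc had 11.30, 11.45 and 11.62 in KO libraries and 11.47, 11.60 and 11.69 in WT libraries, a change of -0.12 (SE 0.07, limma adjusted p = 0.299). Sdhd had 11.56, 11.60 and 11.88 in KO libraries and 11.65, 11.73 and 11.85 in WT libraries, a change of -0.07 (SE 0.08, limma adjusted p = 0.598). KO 3 was the highest of all libraries for Sdhd and the highest KO library for Sdhb and Sdhc. The whole complex took 0.149% ± 0.014 of the estimated reads in KO libraries and 0.160% ± 0.019 in WT libraries (SD, n = 6 each). As estimated reads per kilobase of transcript, scaled to equal depth (RPKM-like levels), Sdha stood at 268 ± 24.5 in KO and 290 ± 44.9 in WT, and Sdhc at 57.9 ± 6.04 in KO and 62.4 ± 6.09 in WT.

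No complex III gene was called. The 4 genes of the core and of the redox centres had negative estimates, and the 5 genes of small accessory subunits had positive ones, 3 of which turned negative after the correction for transcript length (Uqcrb -0.02, Uqcrh -0.06 and Uqcr10 -0.07). Uqcrc2, a core protein on the matrix side, held the lowest estimate: 12.16, 12.39 and 12.50 in KO libraries and 12.36, 12.53 and 12.64 in WT libraries, a change of -0.16 (SE 0.09, limma adjusted p = 0.240). All 6 KO libraries lay under the WT median for Uqcrc2 and for its partner Uqcrc1, whose change was -0.12. Uqcrfs1, the Rieske iron-sulfur protein, gave -0.14. Cyc1, which encodes cytochrome c1 and hands electrons to cytochrome c, had 12.33, 12.50 and 12.65 in KO libraries and 12.33, 12.53 and 12.72 in WT libraries, a change of -0.05 (SE 0.08, limma adjusted p = 0.738).

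Of the small subunits, Uqcr11 held the highest estimate. It had 11.26, 11.79 and 11.99 in KO libraries and 11.31, 11.44 and 11.79 in WT libraries, a change of 0.21 (SE 0.12, limma adjusted p = 0.294). Uqcr11 was highest in KO 1 and KO 3 and lowest in KO 4, so the KO libraries spanned the WT range. The hinge protein gene Uqcrh gave 0.08, Uqcr10 gave 0.09, Uqcrq gave 0.11 and Uqcrb gave 0.12. Cycs, the cytochrome c gene of somatic cells, had 12.12, 12.23 and 12.49 in KO libraries and 12.11, 12.27 and 12.40 in WT libraries, a change of -0.0086 with a 95% interval from -0.19 to 0.17 (limma adjusted p = 0.963).

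Complex IV contains the muscle isoforms. Cox6a2 encodes the heart and muscle form of a regulatory subunit, and Cox6a1 its widely expressed form. Cox6a2 had 13.06, 13.26 and 13.57 in KO libraries and 12.82, 13.18 and 13.48 in WT libraries, a change of 0.14 (SE 0.12, limma adjusted p = 0.473). Cox6a1 had 8.25, 8.52 and 8.71 in KO libraries and 8.14, 8.30 and 8.55 in WT libraries, a change of 0.17 (SE 0.09, limma adjusted p = 0.269). The groups overlapped for both forms. Within a library, Cox6a2 exceeded Cox6a1 by 4.82 ± 0.11 in KO and 4.85 ± 0.20 in WT on the deposited log2 scale (SD, n = 6 each). The difference between genotypes was -0.03 with a 95% interval from -0.235 to 0.17 (exact two-sided permutation p = 0.758, and 0.758 adjusted over the 3 isoform pairs).

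Cox7a1 and Cox7a2 encode the muscle and the widely expressed form of another small membrane subunit. Cox7a1 had 11.54, 11.84 and 12.31 in KO libraries and 11.44, 11.63 and 11.85 in WT libraries, a change of 0.19 (SE 0.12, limma adjusted p = 0.323). Cox7a2 had 10.67, 10.78 and 11.00 in KO libraries and 10.53, 10.84 and 10.95 in WT libraries, a change of 0.02 (SE 0.09, limma adjusted p = 0.919). KO 3 was the highest library for both genes. The difference Cox7a1 minus Cox7a2 was 1.06 ± 0.19 in KO and 0.88 ± 0.11 in WT (SD, n = 6 each), apart by 0.17 with a 95% interval from -0.035 to 0.37 (exact two-sided permutation p = 0.0974; adjusted p = 0.292). It ran from 0.83 to 1.31 in KO libraries and from 0.67 to 1.00 in WT libraries, so the groups overlapped.

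Cox8b, the muscle form of a small membrane subunit, held the highest estimate of all 46 members. Its values were 12.48, 12.70 and 13.19 in KO libraries and 12.11, 12.58 and 12.70 in WT libraries, a change of 0.29 (SE 0.13, unadjusted p = 0.0426 and adjusted p = 0.179 by limma). KO 1, KO 3 and KO 6 lay above all WT libraries, and KO 2, KO 4 and KO 5 lay within the WT range. Cox8a, its widely expressed form, had 8.33, 8.77 and 8.90 in KO libraries and 8.40, 8.52 and 8.69 in WT libraries, a change of 0.15 (SE 0.10, limma adjusted p = 0.334). Cox8b exceeded Cox8a by 4.09 ± 0.19 in KO and 3.96 ± 0.23 in WT (SD, n = 6 each), apart by 0.14 with a 95% interval from -0.135 to 0.41 (exact two-sided permutation p = 0.284; adjusted p = 0.425).

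Counted per kilobase of transcript, the muscle forms made up most of each pair in both genotypes. The muscle form's share was 96.9% ± 0.29 in KO and 97.0% ± 0.39 in WT for Cox6a2, 78.1% ± 2.29 in KO and 76.0% ± 1.51 in WT for Cox7a1, and 97.0% ± 0.42 in KO and 96.8% ± 0.54 in WT for Cox8b (SD, n = 6 each). The Cox7a pair thus kept the largest share of its widely expressed form of the 3. These shares rest on the lengths used, such as 393 bases for Cox7a1 and 659 for Cox7a2. Which transcripts the muscle holds was not tested. None of the 3 pairs showed a difference past the threshold, and the intervals allow shifts of up to 0.41 on the deposited log2 scale. That scale compresses low values, so the gaps to the lower Cox6a1 and Cox8a are not exact log2 ratios. On log2 of scaled reads plus 1, the differences were -0.08 (Cox6a), 0.17 (Cox7a) and 0.10 (Cox8). Their adjusted permutation p-values were 0.444, 0.299 and 0.444.

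**Figure D2:**
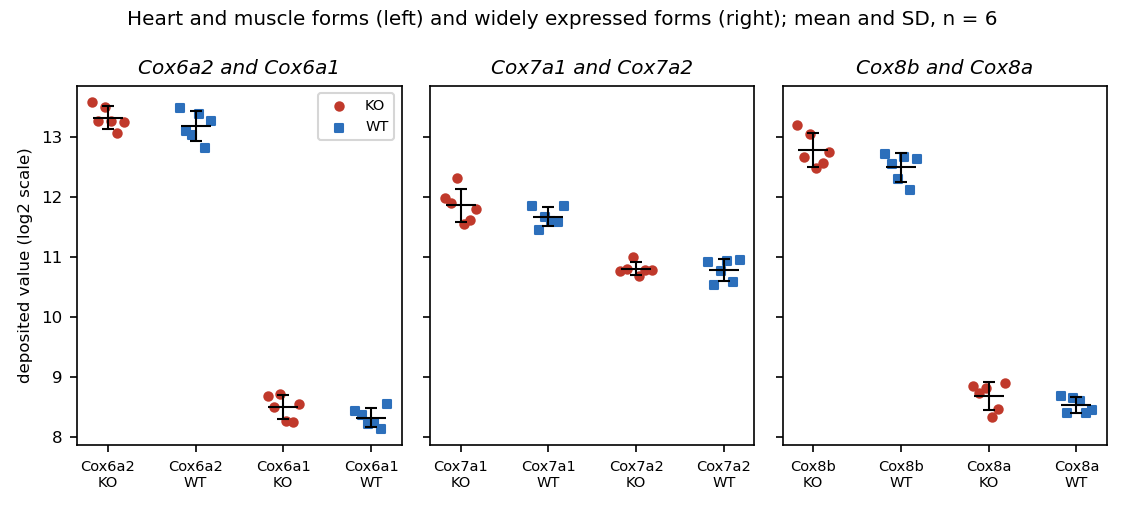
Deposited log2 values of the 3 complex IV isoform pairs, with each point 1 mouse and bars giving mean and SD (n = 6). KO (circles) stands left of WT (squares) for each gene. The muscle forms of the Cox6a and Cox8 pairs stand more than 3 log2 units above their widely expressed partners in both genotypes, while the Cox7a forms lie closer, and KO and WT points overlap for all 6 genes.

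The 250 bases before the start of 5 members are shown, to set the Cox8 pair and Cox6a1 beside Uqcr11 and Atp5e, the members with the highest estimates of complexes III and V. They come from RefSeq on GRCm38.p6, the patch release of the build that the submitters call mm10, and are written 5′ to 3′ on the gene's strand. All 5 genes lie on the minus strand, at chr7:140900447-140900696 (Cox8b), chr19:7217617-7217866 (Cox8a), chr5:115348959-115349208 (Cox6a1), chr10:80406822-80407071 (Uqcr11) and chr2:174464102-174464351 (Atp5e). Capitals mark matches on either strand to 5 motifs: the E-box CAGCTG, the TATA box TATAAA, the ETS core CCGGAAG, the nuclear respiratory factor motif (the earlier run of capitals in Cox6a1) and the estrogen-related receptor half-site AAGGTCA.
Cox8b: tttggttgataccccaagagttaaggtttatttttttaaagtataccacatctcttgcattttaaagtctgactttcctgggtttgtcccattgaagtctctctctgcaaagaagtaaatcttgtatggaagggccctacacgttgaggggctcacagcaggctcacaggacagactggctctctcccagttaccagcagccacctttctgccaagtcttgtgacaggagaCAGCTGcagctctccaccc
Cox8a: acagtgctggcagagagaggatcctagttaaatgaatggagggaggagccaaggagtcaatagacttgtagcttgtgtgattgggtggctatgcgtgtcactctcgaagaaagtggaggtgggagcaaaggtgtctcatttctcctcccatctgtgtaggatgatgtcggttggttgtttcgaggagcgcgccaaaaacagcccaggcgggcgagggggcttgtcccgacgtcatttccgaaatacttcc
Cox6a1: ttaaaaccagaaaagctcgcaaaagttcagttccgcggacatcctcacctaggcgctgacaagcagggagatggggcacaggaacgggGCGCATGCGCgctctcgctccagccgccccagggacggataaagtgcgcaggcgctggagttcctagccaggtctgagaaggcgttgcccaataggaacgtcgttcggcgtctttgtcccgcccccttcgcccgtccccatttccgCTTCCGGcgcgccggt
Uqcr11: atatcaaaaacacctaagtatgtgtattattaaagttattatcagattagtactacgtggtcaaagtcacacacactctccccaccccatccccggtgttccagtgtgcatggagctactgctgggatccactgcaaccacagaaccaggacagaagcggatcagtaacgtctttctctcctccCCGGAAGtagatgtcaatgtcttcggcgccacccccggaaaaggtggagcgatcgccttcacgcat
Atp5e: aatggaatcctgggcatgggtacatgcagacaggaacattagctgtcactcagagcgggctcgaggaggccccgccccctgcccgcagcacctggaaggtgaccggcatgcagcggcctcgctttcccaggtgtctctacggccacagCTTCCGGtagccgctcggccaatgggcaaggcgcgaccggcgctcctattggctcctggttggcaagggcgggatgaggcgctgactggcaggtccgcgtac

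The windows hold different motifs. Cox8b, the muscle form among them, has 1 E-box of the form CAGCTG, which myogenic factors can bind. It starts 19 bases before the RefSeq start, and the window has none of the other 4 motifs. Cox6a1 has the nuclear respiratory factor motif and the ETS core, starting 162 and 16 bases before the RefSeq start, and Uqcr11 and Atp5e each have the ETS core. The GENCODE span of Cox6a1 reaches into its window, to base 115348981, and so covers the ETS core. Cox8a, Cox7a1 and Cox7a2 have none of the 5 motifs. The other member promoter with CAGCTG is that of Atp5b. Other forms of the E-box were not searched, and the Atp5e window holds CACCTG and CAGGTG unmarked. RefSeq promoters were matched for 35 of the 49 members, and Cox6a2 was not among them. Of the 35, 8 (22.9%) hold the ETS core, against 7.05% of 27018 promoters of the same length. The nuclear respiratory factor motif stands in 3 (8.57%), against 0.781%. Those 27018 promoters were not limited to genes tested in this muscle. The E-box form CAGCTG stands in 5.71% of members' promoters and 12.8% of all. The TATA box stands in 5.71% and 13.0%, and the receptor half-site in 5.71% and 4.05%. Motif matches are a description of the letters only.

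Of the other complex IV genes, none was called. Cox4i1, the ubiquitous form of the largest nuclear subunit, gave 0.02, the matrix-side subunits Cox5a and Cox5b gave 0.04 and 0.06, and Cox6b1, Cox6c and Cox7b gave 0.04, 0.04 and 0.05. Cox7c gave the highest estimate of the complex after Cox8b, 0.19 (SE 0.10, limma adjusted p = 0.240). Cox7a2l, which joins complexes III and IV into supercomplexes, gave 0.10 (SE 0.07, limma adjusted p = 0.370). The lowest estimate of the complex was that of Cox4i2, the hypoxia-responsive form known from lung and vessel walls. Cox4i2 had 6.34, 6.58 and 6.81 in KO libraries and 6.30, 6.69 and 6.78 in WT libraries, a change of -0.06 (SE 0.10, limma adjusted p = 0.704).

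Cox4i2 rested on 12.3 to 40.6 estimated reads per library, the fewest of any tested member. All 10 tested pericyte and smooth muscle markers had negative estimates, with a median of -0.17 and Myh11, the smooth muscle myosin gene, called lower (-0.54, limma adjusted p = 0.0418). The Myh11 call was lost with the length correction (-0.44, adjusted p = 0.0611), with limma-voom (adjusted p = 0.0679) and without any 1 library other than KO 2, KO 4, WT 4 or WT 6 (adjusted p up to 0.0985). Their summed level ran from 7971 to 12272 scaled reads in KO libraries and from 10426 to 13858 in WT libraries. The part of these cells in the Cox4i2 value was not tested.

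The 3 untested members are the testis forms. Cox7b2 and Cox8c stood at the floor of the table in all 12 libraries. Cox6b2 had 6.47, 6.05, 6.33, 6.07, 5.85 and 6.11 in KO 1 to KO 6 and 5.88, 5.57, 5.78, 5.88, 5.57 and 5.99 in WT 1 to WT 6, where 5.57 is the floor. Its estimated reads did not exceed 23.0 in any library. Without the filter on low values it was called higher in KO (0.37, SE 0.10, limma adjusted p = 0.0486), on a scale that compresses differences at such low counts.

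ATP synthase gave the most abundant members. On the RPKM-like scale, Atp5b, the catalytic beta subunit of the F1 head, stood at 1363 ± 80.2 in KO and 1354 ± 128 in WT (SD, n = 6 each), and its change was -0.0062 with a 95% interval from -0.17 to 0.15. Atp5a1, the alpha subunit, gave -0.12 (SE 0.08, limma adjusted p = 0.348). Atp5c1, the gamma subunit that turns inside the head, held the lowest estimate of all 46 members, at chr2:10056016-10080510 on the minus strand. It had 12.58, 12.69 and 12.80 in KO libraries and 12.82, 12.86 and 12.93 in WT libraries, a change of -0.17 (SE 0.07, unadjusted p = 0.0375 and adjusted p = 0.167 by limma). Every KO library lay under every WT library for Atp5c1, the nearest being KO 3 at 12.80 and WT 2 at 12.82.

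Atp5e, the epsilon subunit that sits on the same central stalk, held the highest estimate of the complex. It had 11.84, 12.26 and 12.58 in KO libraries and 11.80, 12.00 and 12.16 in WT libraries, a change of 0.27 (SE 0.12, unadjusted p = 0.0451 and adjusted p = 0.184 by limma). KO 1, KO 3, KO 6 and KO 2 lay above the highest WT library, and KO 4 and KO 5 lay within the WT range. Atp5d, the third subunit of that stalk, gave -0.04. The 3 central stalk genes thus had estimates of both signs.

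The peripheral stalk genes lay close to 0: Atp5f1 gave 0.02, Atp5h 0.05, Atp5j 0.09 and Atp5o -0.03. The membrane subunits e, f and g, which bind the synthase into dimers, gave 0.23 (Atp5k), 0.14 (Atp5j2) and 0.02 (Atp5l). The c-ring protein is made from Atp5g1, Atp5g2 and Atp5g3, which encode the same mature protein behind different leader peptides. Of the estimated reads of these genes, Atp5g1 took 45.4% ± 0.77 in KO and 44.6% ± 1.12 in WT, Atp5g2 took 12.2% ± 1.65 in KO and 13.0% ± 1.08 in WT, and Atp5g3 took 42.4% ± 1.63 in KO and 42.5% ± 1.47 in WT (SD, n = 6 each). The KO and WT ranges overlapped for all 3. Per kilobase of transcript the order was another, with Atp5g3 at 61.0% ± 2.62 in KO and 60.4% ± 1.89 in WT. Atp5g2 stood at 21.5% ± 2.76 in KO and 22.6% ± 1.80 in WT, and Atp5g1 at 17.5% ± 0.47 in KO and 17.0% ± 0.63 in WT. The lengths used were 2675.5 bases for Atp5g1, 586 for Atp5g2 and 718.5 for Atp5g3. Each is a median over transcripts marked as principal, or over coding or else all transcripts where none was marked. The order per kilobase rests on these lengths, and which transcripts the muscle holds was not tested. The shares were not tested between genotypes. Of the members that are no subunits, Atp5s gave -0.10 and Atp5sl gave -0.06.

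The sign of the estimates went with transcript length. Of the 27 tested members with transcripts under 1000 bases, 25 had positive estimates, with a median of 0.09, and of the 19 longer members 4 did, with a median of -0.07. The short members are mostly small subunits, and the long ones include the 4 complex II genes and the complex III core. The same held among tested genes that are not members, complex I included: of 759 such genes under 1000 bases, 75.9% had positive estimates, with a median of 0.11, and longer ones had a median of -0.02. Across the 46 members, Spearman's rho between length and change was -0.73, and across 12146 tested genes with a length it was -0.33. These are descriptions over genes, which share the 12 libraries and are not replicates. The 37 complex I subunits, of which none was called, had a median of 0.10.

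**Figure D3:**
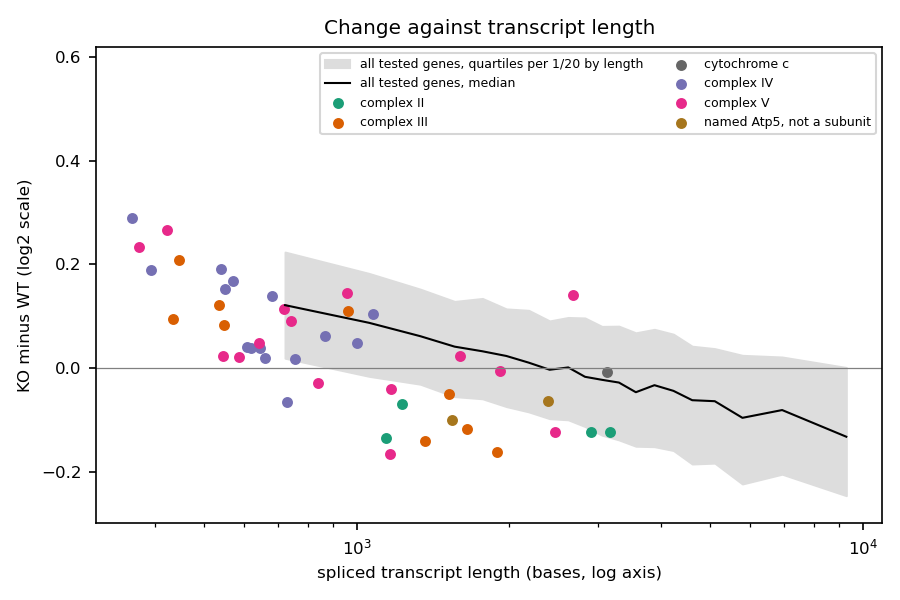
Change, KO minus WT on the log2 scale, against spliced transcript length (log axis) for the 46 tested members, coloured by complex, over the median (line) and quartiles (band) of all tested genes in 20 classes of length. Members under 1000 bases lie mostly above 0, longer members mostly below it, and the line of all tested genes runs in the same direction, with medians of 0.12 in the shortest class and -0.13 in the longest.

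After each library was corrected for a smooth trend on transcript length, 32 members had negative and 14 positive estimates. The members' median became -0.07, against 0.0047 over all tested genes. No member was called, where 5.71% of tested genes were, and 6 members passed unadjusted, where 25.1% of tested genes did. The complex IV median became -0.04 (7 positive and 8 negative), that of complex III -0.07 (2 and 7) and that of complex V -0.03 (4 and 11), while complex II kept -0.12 with its 4 genes negative. Cox8b became 0.11 and Atp5e 0.10, while Atp5c1 became -0.24 (limma adjusted p = 0.0605). The source of the length trend was not tested.

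The short members also moved together among libraries of a genotype. Values here are medians over the genes of a class, each gene as its deviation from its mean over the 12 libraries (log2 scale). The short members stood at 0.19 in KO 1, 0.08 in KO 2, 0.28 in KO 3, -0.16 in KO 4, -0.14 in KO 5 and 0.03 in KO 6, and at 0.09, -0.21, -0.13, 0.03, -0.20 and 0.13 in WT 1 to WT 6. KO 1 and KO 3 were the high libraries and WT 2 and WT 5 the low ones, and KO 4 and KO 5 lay among the low WT libraries. The members of 1000 bases or more stood at -0.07, 0.01, 0.11, -0.02, -0.14 and -0.10 in KO 1 to KO 6, and at 0.07, -0.08, 0.04, -0.02, 0.05 and 0.15 in WT 1 to WT 6. Short and long members were thus on opposite sides of 0 in KO 1, KO 6, WT 3, WT 4 and WT 5 and on the same side in the other libraries. The other tested genes under 1000 bases stood at 0.18, 0.04, 0.14, -0.09, 0.00072 and 0.10 in KO 1 to KO 6, and at 0.03, -0.13, -0.16, 0.09, -0.18 and 0.0089 in WT 1 to WT 6. They had the sign of the short members in every library except KO 5, where they lay near 0. After subtracting each group's mean, pairs of short members correlated over the libraries with a mean r of 0.76, pairs of long members with 0.50 and short with long members with 0.40. After the length correction these means were 0.41, 0.48 and 0.36.

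**Figure D4:**
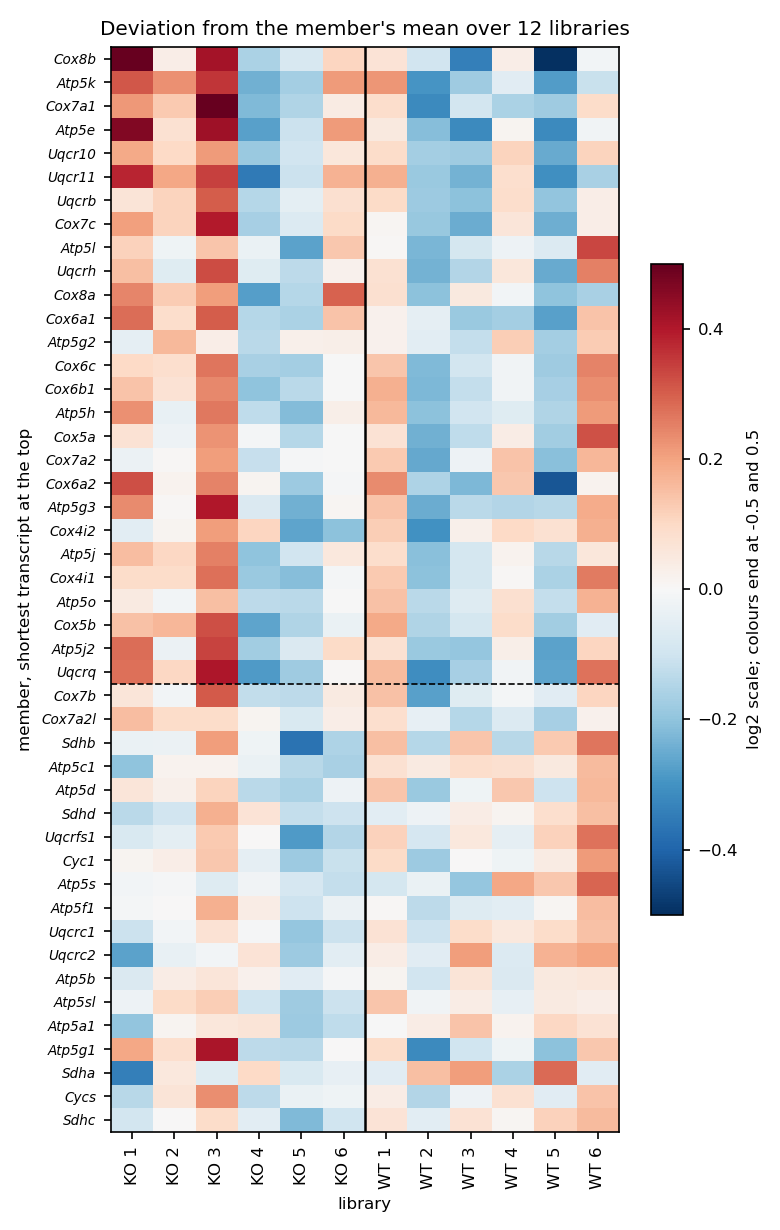
Deviation of each tested member from its mean over the 12 libraries (log2 scale, colours end at -0.5 and 0.5), KO libraries left of the line and WT libraries right of it, the shortest transcript at the top and a dashed line at 1000 bases. The short members are high together in KO 1 and KO 3 and low together in KO 4, KO 5, WT 2 and WT 5, and this pattern fades among the longer members.

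Assembly and regulatory genes of these complexes were counted beside the members. Calls among all tested genes came to 3.12% higher and 3.08% lower. Of 6 tested assembly and regulatory genes of ATP synthase, 1 was higher and 1 lower. Atpif1, which encodes the inhibitor that stops the synthase from running in reverse, stood at 8.42, 8.68 and 9.22 in KO libraries and 8.01, 8.19 and 8.22 in WT libraries, without overlap, and rose by 0.56 (SE 0.12, limma adjusted p = 0.0165). Atpaf1, a chaperone for the beta subunit during F1 assembly, stood at 8.53, 8.92 and 9.26 in KO libraries and 9.23, 9.39 and 9.60 in WT libraries, a change of -0.49 (SE 0.11, limma adjusted p = 0.0177). Both calls held without any 1 library.

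Of 22 tested complex IV assembly genes, 1 was higher and 1 lower. Cox17, the copper chaperone that supplies the enzyme, stood at 9.91, 10.26 and 10.49 in KO libraries and 9.50, 9.88 and 10.10 in WT libraries, a change of 0.42 (SE 0.12, limma adjusted p = 0.0439). Coa5, needed early in assembly in human cells, stood at 10.49, 10.93 and 11.22 in KO libraries and 11.15, 11.39 and 11.48 in WT libraries, a change of -0.46 (SE 0.12, limma adjusted p = 0.0360). The groups overlapped in both genes. The Cox17 call was lost without any 1 of KO 1, KO 3, KO 6, WT 1, WT 2, WT 3, WT 5 and WT 6 (adjusted p up to 0.110), and that of Coa5 without any 1 of KO 1, KO 3, KO 6, WT 2, WT 3, WT 5 and WT 6 (up to 0.0934). Both kept their direction, and both were called after the length correction. No gene was called among 4 assembly factors of complex II (median change 0.0092), 7 of complex III (-0.0025) and 2 supercomplex factors (0.22).

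Of 13 citric acid cycle genes none was called, 12 had negative estimates and the median was -0.13, beside the 4 negative complex II genes. Citrate synthase, Cs, gave -0.18 (SE 0.09, limma adjusted p = 0.208). Of 17 tested genes of mitochondrial carriers, pores and structure, 2 were lower and none higher, with a median of -0.03. Tomm20, a receptor for imported proteins, gave -0.27 (SE 0.08, limma adjusted p = 0.0463) and Slc25a12, an aspartate-glutamate carrier, gave -0.42 (SE 0.12, limma adjusted p = 0.0465). After the length correction neither passed, with -0.19 (adjusted p = 0.123) for Tomm20 and -0.33 (adjusted p = 0.0516) for Slc25a12. Both also missed the threshold without the filter on low values (0.0534 for Tomm20 and 0.0511 for Slc25a12) and with quantile normalization (0.0724 and 0.0616), and Tomm20 did with medians aligned (0.0524) and with the replicate block (0.0724). The Tomm20 call was lost without any 1 library other than KO 2 or KO 5 (adjusted p up to 0.103), and that of Slc25a12 without any 1 library other than KO 2, KO 4, KO 5 or WT 4 (up to 0.107).

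Slow fibres hold many mitochondria, and their contractile transcripts differed widely between the libraries. The 10 genes listed summed to 1300 to 17334 scaled reads in KO libraries and 6517 to 66117 in WT libraries, 9 of 10 had negative estimates, the median was -1.83 and none was called. Myh7, the slow myosin gene, stood at 5.57, 9.70 and 12.67 in KO libraries and 11.02, 12.73 and 14.27 in WT libraries, a change of -3.37 (SE 1.25, limma adjusted p = 0.128). Myl2, a slow myosin light chain gene, gave -2.66 (SE 0.83, limma adjusted p = 0.0835) and was called without trend and robust moderation (adjusted p = 0.0350). On log2 of scaled reads plus 0.1, Myh7 gave -5.25 (SE 2.46, limma adjusted p = 0.209). The part of slow fibres in the members' values was not tested. Of 6 brown adipocyte genes, whose cells also carry dense mitochondria, Ucp1 stood at the floor in all 12 libraries, and the list summed to 62.8 to 141 scaled reads in KO libraries and 96.0 to 130 in WT libraries.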

How the data were processed

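Poly-A RNA of the gastrocnemius of 6 KO and 6 WT mice was sequenced from libraries that do not mark strand, per the labels' protocols. The authors deposited log2 values of 24528 genes in each library. Their transformation and scaling are unnamed in the labels and the header. Trimming, alignment and counting tools (fastp, STAR, featureCounts) and the build mm10 come from the submitters' processing notes, without versions. All libraries share a floor of 5.57, the shape of a variance-stabilizing transformation, which compresses differences between low values. Inverting it and taking the smallest step of a library as 1 read gave estimated reads, of which 89.4% to 93.7% of values up to 10 reads fell within 0.1 of a whole number. Estimated totals ran from 12283798 to 18706388 reads and cover counting error only. How reads shared with processed pseudogenes were counted is unknown, so levels of small subunits are uncertain in that respect.

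A gene was tested if it reached 10 estimated reads in 6 or more libraries, which left 12218. The deposited log2 values were fitted with limma 3.58.1 (R 4.3.3) by genotype alone, with trend and robust moderation, and two-sided p-values adjusted by the Benjamini-Hochberg method at 0.05. No count test was the main result, since the table holds no counts. Isoform pairs were compared by an exact permutation test over 924 assignments, adjusted over 3 pairs, with the 95% interval from inverting the test. Scaled reads are estimated reads brought to a common depth. Transcript lengths come from GENCODE M21 on the same build, with 72 tested genes lacking one. Each is the median over the gene's transcripts marked as principal, or over its coding or else all transcripts where none was marked. The length correction removed a smoothing spline with 5 degrees of freedom from each library. The RPKM-like level divides estimated reads by length in kilobases and by the library total, as RPKM does. The fit was tested on simulated data first.

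Members and lists were chosen with earlier results of these data known. Named in full were called members, isoform pairs, Cycs, Cyc1, the Sdh genes, the highest and lowest change of each complex, up to 4 called genes of each other list, Myh7, Myl2 and Ank2. Cox6b2, Cox7c, Cox7a2l, Atp5a1, Atp5b, Cs and Myh11 were singled out after their values were seen. Called marker genes not described above were Adipoq (-0.34), Flt1 (-0.50) and Cdh15 (-0.37), all lower. Flt1 lost its call with the length correction (adjusted p = 0.0552), Flt1 and Adipoq with limma-voom (0.0559 and 0.0528), and each of the 3 without some single libraries (adjusted p up to 0.0829 for Flt1, 0.106 for Adipoq and 0.0857 for Cdh15). The fibroblast, macrophage, nerve, erythrocyte and cardiomyocyte lists held no call. Alternatives covered filters, variance model, limma-voom, scaling, pseudocount, length, replicate block and leaving out each library.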

Additional observations from a re-analysis of the deposited data

Results flagged for a closer look

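Among 98 groups of 6 libraries looked at, 4 held a library far from the others of its group, where chance gives about 1 in 20. Uqcrc1, a core protein gene of complex III, stood at 13.315 in WT 2, under the other WT libraries at 13.47 to 13.57. Cox4i2 stood at 6.30 in WT 2, with the other WT libraries at 6.63 to 6.78. Cox7a2 stood at 11.00 in KO 3, above the other KO libraries at 10.67 to 10.79. Cox7a1 minus Cox7a2 was 0.672 in WT 4, under the other WT libraries at 0.89 to 1.00.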

How the results depend on the processing

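No tested member was called under any alternative run or without any 1 library. Without the filter on low values, 1 member that is otherwise untested, Cox6b2, was called higher. The members' median change was 0.04, 0.13 with quantile normalization and -0.065 with the length correction, and it ran from -0.0041 to 0.081 when each library was left out. The count of called genes, 757, ran from 194 to 1514 when each library was left out (106 to 681 higher, 88 to 833 lower). It was 194 to 367 without any 1 of KO 1, KO 3, KO 6, WT 1, WT 2, WT 3, WT 5 and WT 6, and 1514 without KO 2.

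Some estimates changed sign, none of them called. Most were near 0, but those that changed with the length correction included Uqcrb and Atp5g3, at 0.12 and 0.11 before it. With limma-voom, Atp5b gave 0.014 and Cycs 0.011, and with medians aligned Atp5b gave 0.0050 and Cycs 0.0025. With quantile normalization, Cox6a2 minus Cox6a1 gave 0.0074, Atp5d 0.027, Atp5o 0.054, Cyc1 0.042, Cycs 0.063 and Sdhd 0.021. With the length correction, alone or with the replicate block, the estimates were Atp5f1 -0.017, Atp5g2 -0.11, Atp5g3 -0.0020, Atp5h -0.078, Atp5j -0.021, Atp5l -0.12, Cox4i1 -0.093, Cox5a -0.087, Cox5b -0.037, Cox6b1 -0.091, Cox6c -0.091, Cox7a2 -0.10, Cox7b -0.037, Cycs 0.018, Uqcr10 -0.067, Uqcrb -0.021 and Uqcrh -0.058. The cause was not tested. Leaving out each library gave ranges across 0 for Cox6a2 minus Cox6a1 (-0.065 to 0.028), Atp5b (-0.026 to 0.0076), Atp5f1 (-0.0093 to 0.057), Atp5g2 (-0.0098 to 0.051), Atp5h (-0.00044 to 0.096), Atp5l (-0.020 to 0.092), Atp5o (-0.062 to 0.0032), Cox4i1 (-0.036 to 0.072), Cox5a (-0.0061 to 0.11), Cox6b1 (-0.0056 to 0.089), Cox6c (-0.0093 to 0.094), Cox7a2 (-0.031 to 0.053), Cox7b (-0.0089 to 0.082) and Cycs (-0.056 to 0.019).

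KO and WT libraries share replicate numbers, and whether the numbers pair the mice was not tested. Deviations of same-numbered libraries correlated between -0.361 and 0.291, and 2 of 6 KO libraries correlated best with their own number. These values cannot decide whether mice were paired. With the replicate block, 813 genes were called (357 higher, 456 lower) and no member. With 6 mice per group, changes smaller than the interval half-widths of 0.142 to 0.280 on the deposited scale cannot be told from 0.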
